A study of Mus musculus with 8 samples.

Results

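The NF-κB subunits and feedback genes described here are 10 genes: the subunit genes Nfkb1, Nfkb2, Rel and Relb, the inhibitor and regulator genes Nfkbia, Nfkbiz and Tnfaip3, and the target genes Birc3, Icam1 and Traf1. They were found by symbol in the deposited table of 15576 gene rows, which held all 10, and all 10 were among the 11937 genes tested. Their RNA was compared between sorted bone marrow cells, labelled stem cells and called LSCs (leukemic stem cells) in the study, of CML mice given imatinib (CML-TKI, 4 libraries) and of untreated CML mice (CML, 4 libraries). Both groups were C57BL/6 by their labels and carried BCR-ABL and SCL-tTA, a pair of transgenes in which tTA, under control of SCL gene elements, turns on BCR-ABL in stem and progenitor cells once tetracycline is stopped. Imatinib, a tyrosine kinase inhibitor (TKI) of BCR-ABL, was given to the CML-TKI mice by gavage at 400 mg/kg on alternate days for 4 weeks in one label and 30 days in another, while the study's own text gives a lower dose for this comparison. For the animals of these libraries, the sources used here do not say how old they were, whether they were primary or transplanted mice, or whether each library was 1 animal, so the p-values measure the spread between these libraries.

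NF-κB is a family of dimeric transcription factors. In resting cells IκB proteins, of which IκBα (Nfkbia) is the best known, hold most of the dimers in the cytoplasm. TNF and IL-1 receptors and Toll-like receptors activate the IKK kinase complex, which marks IκBα for degradation, and a second, slower route processes the Nfkb2 product p100 to p52, the partner of RelB. The freed dimers then induce, among many genes, their own inhibitors, so that Nfkbia and Tnfaip3 RNA is commonly read as a sign of recent NF-κB activity. In blood formation the pathway is known for inflammatory responses of myeloid cells and for the survival of lymphocytes.

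The promoters of some of these genes hold the letters that NF-κB dimers are known to bind and are shown for the members that have them. In RefSeq promoter windows (GRCm38.p6, 250 bases before each start), a match to the κB consensus, a motif of 10 bases that opens with GGG and closes with CC on one strand, was looked for on both strands. Of the 7 genes with a window, 4 had a match (Rel, Nfkb2, Nfkbia and Tnfaip3), and Birc3, Icam1 and Traf1 had none, which says only that these letters are not in those windows. Nfkb1, Relb and Nfkbiz were not among the windows. Of all 27025 genes with a window, 8.23% had a match. Matches on opposite strands can overlap, since the motif is nearly palindromic. Capitals mark the bases of a match on either strand, and a match is a description of letters, not a measured binding site. The stretches are given 5′ to 3′ on the gene's strand, for Rel and Nfkbia from 130 to 11 bases before the start and as 30 bases around the matches of Tnfaip3 and of 1 Nfkb2 window. A pair of further Nfkb2 windows held 1 match each and are not shown.
Rel, chr11:23770980-23771099, minus strand: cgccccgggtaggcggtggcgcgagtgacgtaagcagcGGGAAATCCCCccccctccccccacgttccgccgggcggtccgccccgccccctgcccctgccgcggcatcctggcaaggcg
Nfkbia, chr12:55492658-55492777, minus strand: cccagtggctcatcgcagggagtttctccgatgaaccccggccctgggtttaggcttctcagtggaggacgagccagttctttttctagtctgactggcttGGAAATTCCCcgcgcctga
Tnfaip3, chr10:19015516-19015545, minus strand: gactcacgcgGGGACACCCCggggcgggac
Tnfaip3, chr10:19015403-19015432, minus strand: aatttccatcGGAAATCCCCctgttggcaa
Nfkb2, chr19:46304688-46304717, plus strand: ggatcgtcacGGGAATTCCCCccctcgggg
Nfkb2, chr19:46304716-46304745, plus strand: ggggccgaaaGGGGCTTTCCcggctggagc

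Levels are CPM (counts scaled to a common library total with TMM factors). A gene was called when its adjusted p from the quasi-likelihood test of edgeR was under 0.05, with Benjamini-Hochberg adjustment over all genes tested. Library totals ran from 4939644 to 8620101 counts in CML and from 1041552 (CML-TKI 3) to 5104268 in CML-TKI, so that 3 counts, taken as the floor, correspond to at most 0.58 CPM in a CML library and to 3.29 CPM in CML-TKI 3. The column that follows CML 3 is named 5 and is called CML 5. CML 1, 2 and 3 were closer to each other (chi-square per degree of freedom 3.59 to 4.83 over genes, where 1 is sampling noise) than any other pair of a group (24.1 to 62.1). The labels give a CD150-negative, CD48-positive gate for both groups, whereas Slamf1 (CD150) had 29 to 37.7 CPM and Cd48 3.86 to 6.4 CPM in the CML libraries, against 0.62 to 6.58 and 39.9 to 178 CPM in CML-TKI, so the CML libraries went against their label. The study's text instead defines LSCs as CD48-negative and CD150-positive, and against that gate the CML-TKI libraries were the group that differed. That definition also asks for cKit and Sca1. Kit had 764 to 1020 CPM in CML and 194 to 290 in CML-TKI (adjusted p = 0.00087 by edgeR). Ly6a (Sca1) had 33.2 to 38.5 and 1.56 to 44.3 CPM (adjusted p = 0.373 by edgeR). Which gate was used for which group cannot be told from these data, and the groups are called CML and CML-TKI throughout rather than LSCs. Marker sums also separated the groups, as the plot of marker levels shows. The 12 HSC markers summed to 1920 to 2520 CPM in CML and 252 to 749 in CML-TKI, the 12 granulocyte markers to 152 to 256 and 1440 to 8410, and the 11 monocyte and macrophage markers to 250 to 321 and 1480 to 7460. The 20 immediate early genes, which rise within minutes of a stimulus or of handling, summed to 2010 to 3220 CPM in CML and 767 to 850 in CML-TKI. The sum of the 10 heat shock genes went the other way without overlap, with 1650 to 2660 CPM in CML and 4150 to 5410 in CML-TKI. Hspa8 alone had a mean of 1465 CPM in CML and 2885 in CML-TKI. Of 9 heat shock genes tested, 4 were called higher and 0 lower in CML-TKI. Of 18 immediate early genes tested, 9 were called lower and 2 higher (all genes, 3.93% lower and 6.29% higher). CML-TKI 3 alone held 31620 CPM of the 7 erythroid markers, where the other libraries held 55.2 to 500.5, and 287 CPM of the 6 B cell markers, where they held 16.9 to 23.4. CML-TKI 1 had the lowest granulocyte and monocyte sums and the highest HSC sum of its group. In these bulk samples, fewer cells of a type and less RNA per cell cannot be told apart.

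**Figure D1:**
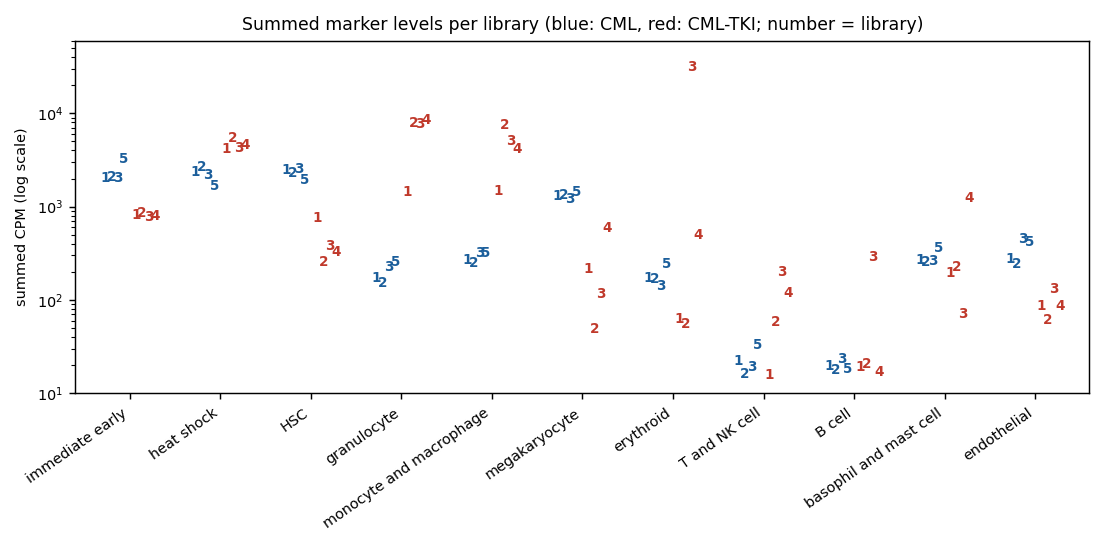
Summed CPM of each marker list on a log axis for the 4 CML libraries (blue numbers) and the 4 CML-TKI libraries (red numbers), with each number naming the library. CML-TKI 3 stands alone in the erythroid and B cell lists, at 31620 and 287 CPM, and the immediate early sums of the groups do not overlap.

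Of the 10 genes, 1 was called, Rel, which was higher in CML-TKI, and 0 were called lower. Over all 11937 genes tested, 10.2% were called, 6.29% as higher and 3.93% as lower, so 1 of 10 is near the background. At an unadjusted p under 0.05 there were 2 of the 10 genes (Rel and Relb) and 25.7% of all genes, DESeq2 called 1 of the 10 (Rel) and 18.1% of all genes, and limma-voom 2 (Rel higher and Nfkbiz lower) and 21.5% of all genes. The median log2 fold change of the 10 genes was -0.47 and 8 of the 10 were below 0, against a median of 0.00 and 50% of all genes. Without CML-TKI 3 the median was -0.78 with 9 below 0 (all genes, median 0.02). Leaving out any other library gave -0.53 to -0.31. In 0 of the 10 did every CML-TKI library lie above, or every one below, all CML libraries, where 10.3% and 13.1% of all genes did, 23.4% in all. With each library left out, 0 to 2 of the 10 genes and 4.13% to 20.6% of all genes were called, and the 2 (Nfkbia and Nfkbiz, both lower) came without CML-TKI 3, where 4.17% of all genes were called lower.

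**Figure D2:**
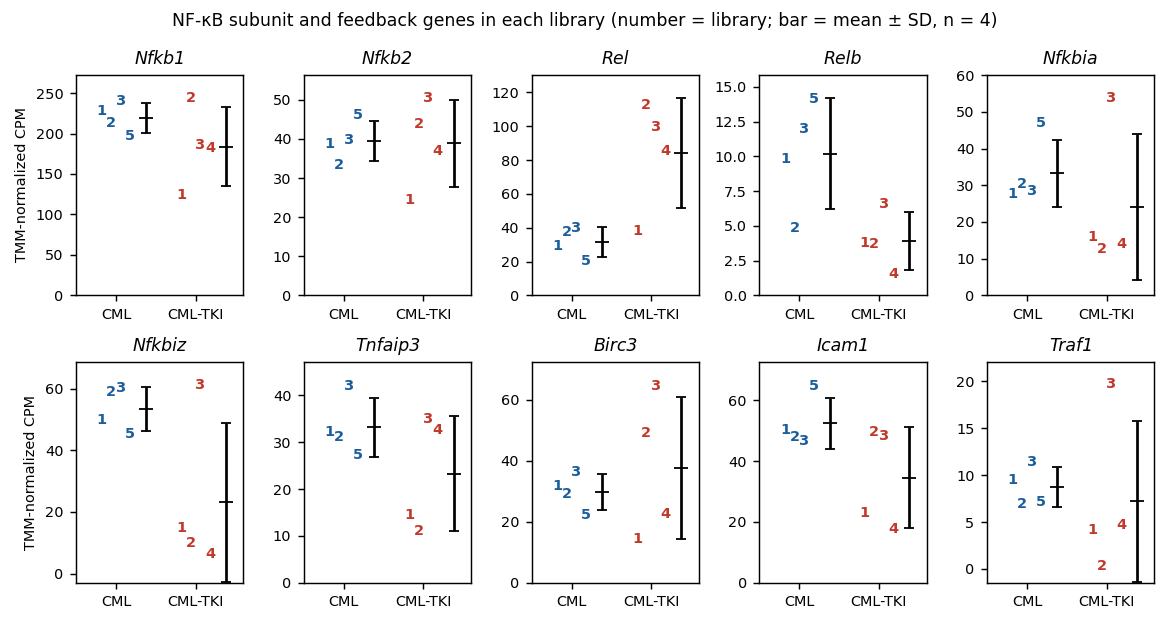
TMM-normalized CPM of the 10 genes in each library, with CML in blue, CML-TKI in red and the numbers naming the libraries. Black bars are the mean ± SD of 4 libraries. The groups overlap in every panel, Rel is high in CML-TKI 2, 3 and 4, and Nfkbia and Nfkbiz are low in CML-TKI 1, 2 and 4 but not in CML-TKI 3.

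Among the subunits, Rel encodes c-Rel, a transactivating subunit prominent in lymphocytes and myeloid cells. Rel (chromosome 11, 23736847 to 23770969) had 29.01, 37.25, 39.6 and 20.35 CPM in CML 1, 2, 3 and 5. In CML-TKI 1, 2, 3 and 4 it had 38.2, 112.5, 99.7 and 85.6 CPM. CML-TKI 2, 3 and 4 lay above every CML library, while CML-TKI 1 lay inside the CML range. The means were 31.6 ± 8.75 CPM (SD, n = 4) in CML and 84.0 ± 32.5 CPM (SD, n = 4) in CML-TKI, a 2.65-fold higher level (log2 fold change 1.41, standard error 0.36, adjusted p = 0.0368 by edgeR). The direction was the same with each library left out (log2 fold change 1.22 to 1.65), but the call was lost without CML 1 (adjusted p = 0.113), CML 2 (0.0834), CML 3 (0.0726), CML 5 (0.0886), CML-TKI 2 (0.0908), CML-TKI 3 (0.068) or CML-TKI 4 (0.0716), and kept without CML-TKI 1 (0.00366). It was also lost with CML 1 to 3, which were close to each other, summed to 1 library (log2 fold change 1.58, adjusted p = 0.227). Granulocyte and monocyte marker sums were also highest in CML-TKI 2, 3 and 4, and their part in the Rel level was not tested.

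Nfkb1, which encodes p105 and its product p50, the usual DNA-binding partner of RelA and c-Rel, lies on chromosome 3 (135584655 to 135691969). It had 227, 213, 239.8 and 197 CPM in CML 1, 2, 3 and 5 and 125, 244, 185 and 182 CPM in CML-TKI 1 to 4. CML-TKI 1 was the lowest of all libraries and CML-TKI 2 the highest. Its log2 fold change of -0.26, with a standard error of 0.23, gave an adjusted p of 0.53 by edgeR, a difference smaller than the spread between the CML-TKI libraries. With 1 library left out the log2 fold change of Nfkb1 ran from -0.43 (without CML-TKI 2) to -0.11 (without CML-TKI 1).

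Nfkb2, the gene of p100 and p52 on chromosome 19 (46300994 to 46312400), had 38.8, 33.4, 39.6 and 46.1 CPM in CML 1, 2, 3 and 5. It had 24.5, 43.7, 50.4 and 36.9 CPM in CML-TKI 1 to 4. CML-TKI 1 was again the lowest, and the other 3 lay around the CML libraries. Nfkb2 differed by -0.03 on the log2 scale (standard error 0.28, adjusted p = 0.958 by edgeR), which turned to 0.04 without CML 5 and to 0.13 without CML-TKI 1.

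Relb, the subunit gene of the slower route and itself an NF-κB target (chromosome 7, 19606217 to 19629438), rested on few reads, with 6 to 20 counts in the CML-TKI libraries. It had 9.805, 4.825, 12.0 and 14.2 CPM in CML 1, 2, 3 and 5 and 3.799, 3.72, 6.58 and 1.56 CPM in CML-TKI 1 to 4. CML-TKI 3 lay above CML 2, and the other 3 CML-TKI libraries lay below every CML library. This difference of -1.45 on the log2 scale (standard error 0.60) had an unadjusted p of 0.0358 and an adjusted p of 0.158 by edgeR, and so was not called. Leaving out any 1 library did not bring it past the threshold (adjusted p 0.093 to 0.341, log2 fold change -1.73 to -1.18).

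Relative to Nfkb1 in the same library, a ratio that does not depend on the scaling of libraries, Rel had a mean log2 ratio of -2.84 ± 0.35 (SD, n = 4) in CML and -1.20 ± 0.35 (SD, n = 4) in CML-TKI. The groups did not overlap, with -3.28 to -2.52 in CML and -1.71 to -0.89 in CML-TKI (difference 1.64, exact two-sided permutation p = 0.0286, the smallest that 4 against 4 libraries give, adjusted p = 0.0572 over the 4 ratios computed). In this ratio CML-TKI 1 lay with its group. Rel over Nfkbia differed by 2.07 in the same direction without overlap (exact permutation p = 0.0286, adjusted p = 0.0572). Relb over Nfkb2 differed by -1.39 (exact permutation p = 0.0571, adjusted p = 0.0761) and Nfkbia over Nfkb1 by -0.43 (exact permutation p = 0.514, adjusted p = 0.514). The ratios were chosen after counts of these genes had been seen, and none passed 0.05 after adjustment. The permutations and SDs take CML 1, 2 and 3 as separate libraries although they were close to each other, and no ratio was computed with them summed.

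Among the inhibitors, Nfkbia encodes IκBα, which binds NF-κB dimers and carries them out of the nucleus. Nfkbia (chromosome 12, 55489409 to 55492647), whose promoter match is given above, had 27.65, 30.3, 28.4 and 46.9 CPM in CML 1, 2, 3 and 5. It had 15.95, 12.7, 53.7 and 14.05 CPM in CML-TKI 1, 2, 3 and 4. CML-TKI 1, 2 and 4 lay below every CML library and CML-TKI 3 above every one. The value of CML-TKI 3 rests on 49 counts, an exact 95% Poisson interval of 39.7 to 71.0 CPM that covers counting error only and stays above the other CML-TKI values. The interval holds the 46.9 CPM of CML 5. Over all libraries Nfkbia differed by -0.53 on the log2 scale (standard error 0.49, adjusted p = 0.543 by edgeR), and without CML-TKI 3 it was -1.21 and called (adjusted p = 0.0377).

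Nfkbiz encodes IκBζ, a nuclear IκB protein that is induced by Toll-like receptor and IL-1 signals and is needed for a set of secondary response genes. Nfkbiz (chromosome 16, 55811375 to 55838954) had 49.8, 58.9, 60.1 and 45.2 CPM in CML 1, 2, 3 and 5. In CML-TKI 1 to 4 it had 14.8, 9.92, 61.4 and 6.24 CPM. It showed the pattern of Nfkbia in a larger size, with CML-TKI 3 just above the highest CML library (56 counts, 46.4 to 79.7 CPM by the same interval) and the other 3 far below the lowest. Nfkbiz differed by -1.31 on the log2 scale (standard error 0.62, adjusted p = 0.219 by edgeR), and by -2.35 without CML-TKI 3, where it was called (adjusted p = 0.00641). Limma-voom with sample quality weights, which lets a library count for less, also called it (log2 fold change -2.33, adjusted p = 0.00213).

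CML-TKI 3, the library that ended both calls, was the shallowest and the one with the highest erythroid, B cell and T and NK cell marker sums (198 CPM for the 8 T and NK cell markers, against 15.6 to 117.8 elsewhere). Its immediate early sum of 767 CPM was the lowest of all 8 libraries, while 7 of the 20 immediate early genes had their highest CML-TKI value there. That count was 4, 4 and 5 in CML-TKI 1, 2 and 4, and 25.7% of all genes tested had their highest CML-TKI value in CML-TKI 3. In CML-TKI 3, 3 of the 20 had their highest value of all libraries, against 0, 1 and 0 in CML-TKI 1, 2 and 4. The part of these markers and genes in the Nfkbia and Nfkbiz levels was not tested.

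Tnfaip3 encodes A20, a ubiquitin-editing enzyme that ends NF-κB signals upstream of IKK. Tnfaip3 (chromosome 10, 19000910 to 19015410) had 32.3, 31.1, 42.1 and 27.4 CPM in CML 1, 2, 3 and 5 and 14.4, 11.2, 35.1 and 32.5 CPM in CML-TKI 1 to 4. CML-TKI 1 and 2 lay below every CML library and CML-TKI 3 and 4 inside their range. Tnfaip3 differed by -0.53 on the log2 scale (standard error 0.40, adjusted p = 0.446 by edgeR) and was not called, nor was it in any of the 8 fits with 1 library left out (adjusted p 0.256 to 0.684). In those fits its log2 fold change ran from -0.78 (without CML-TKI 4) to -0.31 (without CML-TKI 2).

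**Figure D3:**
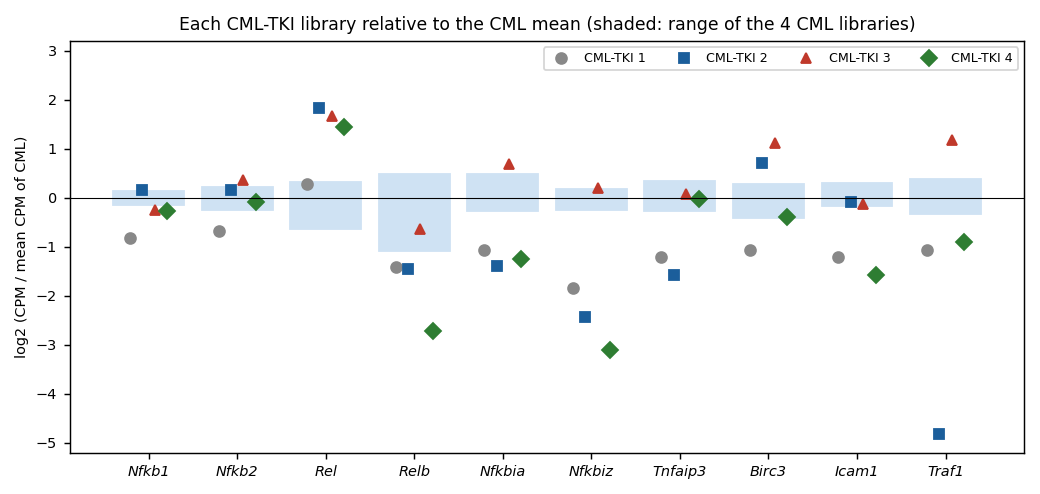
CPM of each CML-TKI library over the mean of the CML libraries, on a log2 scale, with the range of the 4 CML libraries shaded. CML-TKI 3 (triangles) lies above the CML range for 6 of the 10 genes and CML-TKI 1 (circles) below it for 9. For Nfkb2, Nfkbia and Nfkbiz the 95% Poisson interval of CML-TKI 3 (not drawn) reaches into the CML range.

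Of the target genes, Birc3 encodes cIAP2, a ubiquitin ligase that protects from TNF-induced death. Birc3 (chromosome 9, 7847468 to 7873205) had 31.7, 29.15, 36.3 and 22.3 CPM in CML 1, 2, 3 and 5. It had 14.25, 48.96, 64.7 and 22.6 CPM in CML-TKI 1 to 4. CML-TKI 2 and 3 lay above the CML range, CML-TKI 4 inside it and CML-TKI 1 below it. Its difference of 0.31 on the log2 scale (standard error 0.45, adjusted p = 0.721 by edgeR) became -0.05 without CML-TKI 3. The estimated count of Birc3 was not whole (by more than 0.01) in 4 of the 8 libraries, so reads could be shared with another gene. For Nfkb1 the same held in 2 libraries.

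Icam1 encodes an adhesion molecule for leukocyte integrins and is a classical target of TNF. Icam1 (chromosome 9, 21015940 to 21028814) had 50.1, 48.1, 46.8 and 64.9 CPM in CML 1, 2, 3 and 5 and 22.8, 49.6, 48.2 and 17.7 CPM in CML-TKI 1 to 4. CML-TKI 1 and 4 were below every CML library, and CML-TKI 2 and 3 were level with CML 1, 2 and 3. Icam1 differed by -0.62 on the log2 scale (standard error 0.36, adjusted p = 0.316 by edgeR). With 1 library left out this ran from -0.88 (without CML-TKI 2) to -0.40 (without CML-TKI 4). Icam1 overlaps 1 gene on the opposite strand (Gm47079), Nfkb2 overlaps 2 (AC114539.1 and Psd), and Nfkb1 overlaps Gm43430 on its own strand, and no source used here says that reads were counted by strand.

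Traf1, the gene of an adaptor of TNF receptors (chromosome 2, 34941750 to 34961812), had 9.53, 6.95, 11.4 and 7.15 CPM in CML 1, 2, 3 and 5. In CML-TKI 1 to 4 it had 4.18, 0.31, 19.7 and 4.68 CPM, from 22, 1, 18 and 18 counts. As for Nfkbia, CML-TKI 3 lay above every CML library and the other 3 below every one. Traf1 differed by -0.41 on the log2 scale (standard error 0.87, adjusted p = 0.815 by edgeR) and by -1.48 without CML-TKI 3 (adjusted p = 0.242). Without CML-TKI 2 the log2 fold change of Traf1 was -0.0018.

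**Figure D4:**
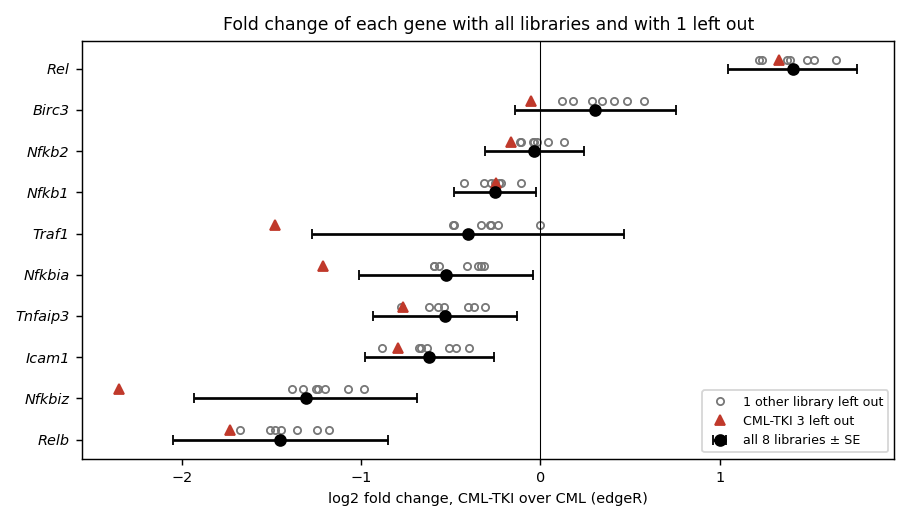
Log2 fold change of CML-TKI over CML for each of the 10 genes (black, ± standard error) with the values when 1 library was left out (open circles, and a red triangle for CML-TKI 3). Rel stays between 1.22 and 1.65, and leaving out CML-TKI 3 moves Nfkbiz to -2.35 and Traf1 to -1.48.

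The 10 genes differed from library to library more within CML-TKI than within CML. The median coefficient of variation was 19.3% in CML and 52.5% in CML-TKI. For all genes tested with a mean of 5 to 300 CPM it was 21% and 41.4%. In CML-TKI 1, 9 of the 10 genes were below the range of the CML libraries and 0 were above it, where 32% and 34% of all genes tested were. In CML-TKI 3, 1 was below and 6 were above, where 44% and 34% of all genes were. For Nfkb2, Nfkbia and Nfkbiz among the 6, the 95% Poisson interval reached below the highest CML value. CML-TKI 2 had 5 below and 3 above (all genes, 41.9% and 33.5%), and CML-TKI 4 had 6 below and 1 above (37.5% and 32.7%). The highest CML-TKI value was in CML-TKI 3 for 7 of the 10 genes (all genes, 25.7%) and in CML-TKI 2 for the other 3.

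Per kilobase of exon, Nfkb1 was the most abundant of the 10 RNAs in both groups, with 53.2 ± 4.46 CPM per kilobase (SD, n = 4) in CML and 44.6 ± 11.8 in CML-TKI. In CML it was followed by Nfkbia (21.1 ± 5.78) and Icam1 (20.7 ± 3.31), which did not differ beyond their spread, then by Nfkbiz (12.9 ± 1.73) and Nfkb2 (9.35 ± 1.23). Tnfaip3 (7.23 ± 1.37) and Birc3 (7.04 ± 1.38) were alike within their spread, as were Relb (4.61 ± 1.81) and Rel (4.23 ± 1.17), and Traf1 was lowest (2.16 ± 0.524). In CML-TKI Rel stood at 11.3 ± 4.35 CPM per kilobase, behind Nfkb1, Nfkbia (15.3 ± 12.5) and Icam1 (13.6 ± 6.59). Without CML-TKI 3, Nfkbia stood at 9.02, below Rel at 10.5, and Nfkbiz and Traf1 at 2.5 and 0.755 CPM per kilobase, from 5.58 and 1.78. Relb (1.77 ± 0.932) and Traf1 (1.78 ± 2.11) were lowest. In the CML-TKI order Nfkb1 stood apart, and the neighbours from Nfkbia down to Tnfaip3 (5.07 ± 2.66) lay within each other's SD.

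The genes whose log2 CPM ran most like that of Rel over the 8 libraries, among 9306 genes compared, were Acer3, Mrs2 and Cd177, with Pearson r of 0.994, 0.993 and 0.992. A total of 331 genes reached r above 0.9 with Rel, against 60 with Nfkbia and 16 with Nfkb1. Nfkbia ran most like Flcn, Cic and Ypel3 (r 0.986, 0.976 and 0.976), and Nfkb1 most like Sdcbp, Wdr41 and Sypl (r 0.950, 0.950 and 0.941). These correlations are descriptions over libraries that differ in depth and group.

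Of the other genes of the pathway, 80 were listed in 5 groups and 69 were tested, of which 6 were called higher and 1 lower in CML-TKI (background 10.2%). The count was 2, 2 and 3 without CML 1, 2 or 3, 15 without CML-TKI 1 and 4 without CML-TKI 2, where 4.13%, 4.51%, 4.69%, 20.6% and 7.38% of all genes were called. None of the 10 other NF-κB and IκB genes was called. Rela, the gene of the main transactivating subunit, had 98.7 ± 23.9 CPM (SD, n = 4) in CML and 68.05 ± 16.1 CPM (SD, n = 4) in CML-TKI (log2 fold change -0.53, adjusted p = 0.212 by edgeR).

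Of the 31 IKK and adaptor genes, 5 were called, all as higher. Chuk, which encodes the kinase IKKα, had 40.4 ± 10.9 CPM in CML and 88.1 ± 18.1 in CML-TKI (SD, n = 4; log2 fold change 1.13, adjusted p = 0.0288 by edgeR), a call lost without CML 1, 2 or 3 or CML-TKI 2. Ikbkb (IKKβ), Ikbkg (the scaffold NEMO) and Map3k14 (NIK, the kinase of the slower route) were not called, with log2 fold changes of 0.66, -0.26 and -0.33 (adjusted p = 0.122, 0.584 and 0.69 by edgeR). Card9, an adaptor of fungal receptors in myeloid cells, had 1.88 ± 1.56 CPM in CML and 33.3 ± 18.2 in CML-TKI (SD, n = 4; log2 fold change 4.09, adjusted p = 0.00791). It was called with each library left out but not with CML 1 to 3 summed (adjusted p = 0.0724 by edgeR), a setting in which none of the 7 called pathway genes kept its call. Tirap and Ticam2, adaptors of Toll-like receptors, had log2 fold changes of 1.88 and 2.08 (adjusted p = 0.0154 and 0.0201). Tirap lost the call without CML 1 or 2, and Ticam2 without any 1 of the 4 CML libraries or CML-TKI 2. The fifth, Tank, named after its values were seen, had 1.51 (adjusted p = 0.035) and kept the call only without CML-TKI 1 or CML-TKI 3. The myeloid marker sums were higher in the same libraries, and their part was not tested.

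Of the 16 ubiquitin editors and genes of LUBAC (a ligase that makes linear ubiquitin chains), 1 was called, Tnip3, a gene named for an A20-interacting protein. Tnip3 had 28.5, 29.5, 30.3 and 18.01 CPM in CML 1, 2, 3 and 5 and 3.61, 0.62, 0 and 0 CPM in CML-TKI 1 to 4, with no overlap (adjusted p = 0.0154 by edgeR). The CML mean was 26.6 CPM and the last 3 CML-TKI libraries stood at or under the floor of 3 counts. The call was lost without CML 1, 2 or 3. Of the 9 receptor genes tested, Il1rl1 was called, the IL-33 receptor of mast cells and basophils, at 4.93 ± 2.57 CPM in CML and 65.4 ± 39.4 in CML-TKI (SD, n = 4; log2 fold change 3.72, adjusted p = 0.00683, and 0.0982 with CML 1 to 3 summed). It had 14.6, 56.1, 85.5 and 105 CPM in CML-TKI 1 to 4, where 5 basophil and mast cell markers summed to 118, 204, 4.38 and 1160 CPM, against 2.06 to 4.05 in CML. Gata2, the other marker of that list and also a stem cell gene, had 252 to 359 CPM in CML and 21.7 to 74.8 in CML-TKI, and the part of these cells was not tested. Only 3 of 11 ligand genes could be tested and 0 were called. Ltb, the gene of lymphotoxin-β, had the lowest of these log2 fold changes, -2.18 (adjusted p = 0.0635). Of the fits with 1 library left out, Ltb was called only in the one without CML-TKI 3 (adjusted p = 0.0123 by edgeR, where 4.17% of all genes were called lower). Tnf and Il1b were too low to test, at 9 and 8 counts or fewer in every CML library and at most 14 and 29 counts in a CML-TKI library.

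Of 38 other NF-κB target genes, 19 were tested, of which 2 were called higher and 1 lower (all genes, 6.29% and 3.93%). Lcn2, which encodes the neutrophil granule protein lipocalin-2, had 15.5 ± 4.15 CPM in CML and 111 ± 85.5 in CML-TKI (SD, n = 4; log2 fold change 2.82, adjusted p = 0.0112 by edgeR) and was called with each library left out but not with CML 1 to 3 summed (adjusted p = 0.152 by edgeR). Gadd45b (log2 fold change 2.05, adjusted p = 0.0413) and Ier3, an immediate early gene (-2.21, adjusted p = 0.0421), kept the call in 2 and 1 of the 8 fits with a library left out. The count was 1 without CML 1, 2, 3 or 5 or CML-TKI 2 (4.13% to 7.38% of all genes), and 7 without CML-TKI 1 (20.6% of all genes). The granulocyte sums were higher and the immediate early sums lower in every CML-TKI library, and their part in the Lcn2 and Ier3 levels was not tested.

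**Figure D5:**
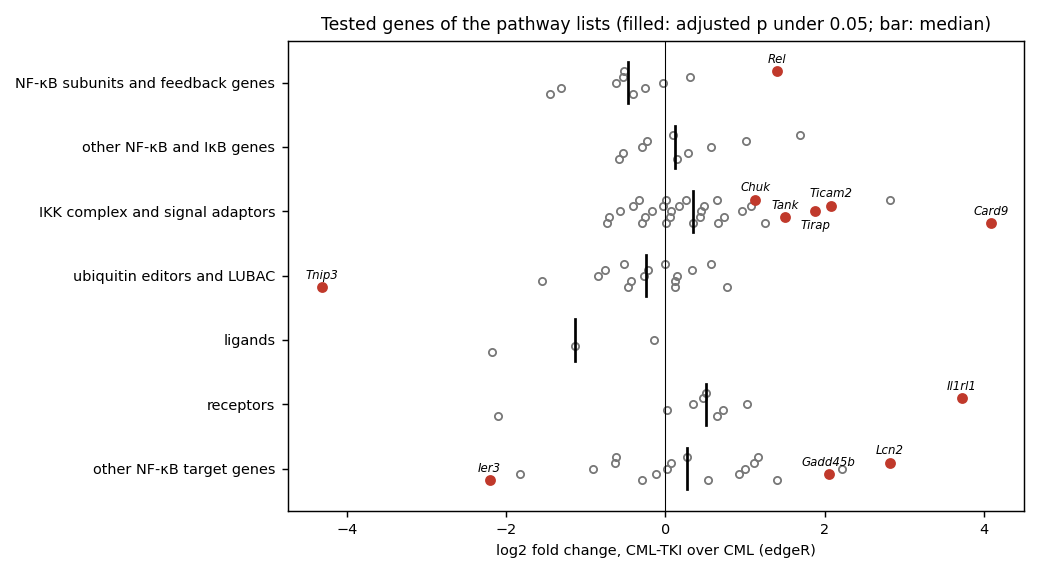
Log2 fold change of every tested gene of the 10 genes and of the 6 other pathway lists, with filled and named points at an adjusted p under 0.05 and black bars at the median. The median of the 10 genes is -0.47 (-0.78 without CML-TKI 3, not drawn), and the points called lower in the other lists are Tnip3 and Ier3.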

How the data were processed

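Per the labels and the study's methods, the authors extracted RNA from sorted cells (RNeasy Plus), made libraries with Nextera XT, aligned the reads with STAR 2.6.1d to mm10 (GRCm38) and counted RefSeq transcripts in Partek (8.0 in the submitters' processing notes). The table the authors deposited holds estimated counts, 1 column per library and not normalized, and 8.32% to 22.1% of a library's values were not whole. Columns were matched to samples by group and number. CML 5 matches no numbered label and entered its group without a number.

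Estimated counts were rounded. In R 4.3.3, edgeR 4.0.16 was run on all genes kept by filterByExpr (minimum count 10, minimum total 15), with TMM factors, a robust quasi-likelihood fit and Benjamini-Hochberg adjustment. Log2 CPM used a prior count of 2, and a standard error is the size of the log2 fold change divided by the root of F. DESeq2 1.42.0, limma 3.58.1 (voom), other scalings and filters, libraries left out, CML 1 to 3 summed and a replicate block were tried. Scripts were tested on simulated data. Coordinates and promoters are those of RefSeq (GRCm38.p6) and exon lengths those of GENCODE.

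The 10 genes, the lists and the naming rule were chosen with earlier results of these data known. Named are all 10 genes, up to 4 called genes of each other list by adjusted p, and Rela, Ikbkb, Chuk, Ikbkg, Map3k14, Tnf and Il1b. Ltb and Tank were named after their values were seen. Intervals and floors cover counting error only, since no molecular identifiers are named.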

Additional observations from a re-analysis of the deposited data

Results flagged for a closer look

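In the 20 groups of 4 libraries formed by the 10 genes, 3 held a library far from the other 3. The nominal rate is about 1 in 20 groups, but of all 11937 genes tested 14.9% had such a library in CML and 11.5% in CML-TKI, so 3 of 20 is near the background, and the groups share libraries and are not independent. The far library was CML 5 for 13.3% of all genes and CML-TKI 3 for 3.63%. Nfkbia had 46.88 CPM in CML 5, with the next CML library at 30.3 CPM, a gap of 0.862 of the group's range. CML 5 also had the highest immediate early sum of all libraries, 3221 CPM. Nfkbia had 53.7 CPM in CML-TKI 3, with the next CML-TKI library at 15.95 CPM (gap 0.921 of the range). Nfkbiz had 61.38 CPM in CML-TKI 3, with the next at 14.8 CPM (gap 0.845 of the range). The erythroid, B cell and T and NK cell sums of CML-TKI 3 moved with its values of Nfkbia and Nfkbiz, and their part was not tested.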

How the results depend on the processing

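Of 170 refits of single genes among the 10, 151 kept their direction and side of the threshold. Nfkb2 turned to 0.04019 (log2 fold change) without CML 5, 0.132 without CML-TKI 1, 0.03426 with the replicate block and 0.08137 for numbers 1 to 3 unpaired, over a range of -0.163 to 0.132 with 1 library left out. Birc3 turned to -0.1908 with limma-voom and -0.05491 without CML-TKI 3, over -0.05491 to 0.5754. Rel kept its direction in all 17 and lost its call in 10, and Nfkbia and Nfkbiz gained one in 1 and 2. The cause of these changes was not tested. Of the 10 genes, 2 were called by limma-voom, 0 with CML 1 to 3 summed, 0 with the replicate block, 0 for numbers 1 to 3 unpaired and 0 to 2 with a library left out. Over all genes 1220 became 2157 by DESeq2, 2563 by limma-voom, 122 with CML 1 to 3 summed, 193 with the replicate block, 589 unpaired and 505 to 2504 with a library left out. The 7 pathway genes became 14 by DESeq2, 14 by limma-voom, 0 summed, 0 with the block, 1 unpaired and 2 to 15 with a library left out, and the 3 target genes 5, 8, 0, 0, 0 and 1 to 7 in the same order. Same-numbered libraries deviated together weakly (correlations -0.0416, 0.0972 and 0.0934) and not every one correlated best with its own number, so the numbers were not taken as pairing. Library totals without Rn45s gave 601 genes higher and 585 lower in place of 751 and 469, and moved the median of all genes to -0.139 and of the 10 genes to -0.62. Depth limits Relb and Traf1, with 6 to 20 and 1 to 22 counts in the CML-TKI libraries.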

Other observations

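Some genes of the pathway were too low to test. Cd40, a TNF receptor family member of B cells and myeloid cells, had 17.5 CPM (16 counts) in CML-TKI 3 and at most 0.52 CPM in any other library. Cd83, an activation marker of B and dendritic cells, had 31.8 CPM (29 counts) in CML-TKI 3 and 2.09, 5.58 and 0.52 CPM in CML-TKI 1, 2 and 4. Il1b had 29, 28, 19 and 0 counts in CML-TKI 1 to 4 (5.51, 8.68, 20.8 and 0 CPM), and 0.772 to 1.16 CPM in CML. These genes were picked after their values were seen, and no test was made of them.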
